A study of Mus musculus with 6 samples.

Results

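Genes of the proteasome were measured in CT26 cells in which the selenoprotein gene Sep15 had been knocked down. The genes were taken by name: every symbol of the array annotation that reads Psma, Psmb, Psmc, Psmd, Psme, Psmf or Psmg followed by a digit, leaving out the immunoproteasome subunits Psmb8, Psmb9 and Psmb10. This gave 46 of the 18193 genes measured, each read from its probe set with the highest mean over the 6 arrays. Of these, 44 are known subunits, assembly chaperones, activators or an inhibitor of the proteasome. The other 2, Psmc3ip and Psme3ip1, are named after the proteasome protein they bind and were kept because the naming rule takes them. The probe set shared by the activator gene Psme2 and its copy Psme2b carries both symbols, so it was not counted and is described separately.

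CT26 cells grow from a colon carcinoma of BALB/c mice. In the control group, 3 samples carried pU6-m3 without an insert, and in the shSep15 group 3 samples carried pU6-m3 with a short hairpin RNA against Sep15. Expression was read on 1 Affymetrix Mouse430_2 array per sample as log2 signals made with RMA. With 1 hairpin, effects of the construct and of the knockdown cannot be told apart, and nothing in the labels tells clones from pools.

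Selenof, the current symbol of Sep15, read 12.40 ± 0.05 (log2, SD, n = 3) in control and 9.48 ± 0.13 (SD, n = 3) in shSep15 cells, a log2 difference of −2.92 (limma adjusted p = 2.43e-07). Of 9 intestinal epithelial markers, 5 were near background in both groups, Cdh1 at 4.03 and 4.01 and Vil1 at 4.90 and 4.80 among them. Krt18 and Krt20 fell (−2.16 and −2.13). Epcam (7.59 and 7.55) and Krt8 (6.07 and 6.06, just above background) were not past the threshold. Of 7 fibroblast and mesenchymal markers 4 were higher and 3 lower. The higher were Pdgfra (1.35), Col1a1 (1.32), Col1a2 (0.64) and Vim (0.23, at 13.43 and 13.66). The lower were Pdgfrb (−3.36), Col3a1 (−2.27) and Dcn (−1.72). Of 6 leukocyte markers, 3 were near background, Ptprc (4.14 and 4.23) and Itgam (4.98 and 4.61) among them. Itgam was also called lower in shSep15 cells. The others called lower were Cd68 (log2 difference −1.48 from a control mean of 7.47, limma adjusted p = 0.000297) and Lyz2 (−0.47 from 7.05, limma adjusted p = 0.0166). Cd3e (6.26 and 6.39) was above background and not past the threshold. Background here means log2 6.02, below which 95 in 100 of 78 olfactory and vomeronasal receptor probe sets had their mean. Interferon-stimulated genes, 10 measured, deviated from their control means by a median of 1.59 on shSep15 3, against −0.21 and 0.02 on shSep15 1 and 2. The 18S ribosomal RNA control at the 3′ end read 8.30 on control 3 and 6.01 to 6.53 elsewhere. Of the 46 proteasome genes, 26 had their lowest control value on control 3, 12 on control 1 and 8 on control 2. The same count over all genes was not made. Counts are therefore also given without shSep15 3 and without control 3. The part of these markers and array features in the results was not tested.

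The proteasome breaks down proteins tagged with ubiquitin. Its core particle is a stack of rings of alpha subunits, which gate the entry, and of beta subunits, some of which carry the protease sites. The regulatory particle caps the core: a ring of ATPases unfolds the substrate, and non-ATPase subunits bind and remove ubiquitin. Dedicated chaperones assemble both particles, and alternative activators can take the place of the regulatory particle. In mammalian cells the transcription factor NFE2L1 is known to raise proteasome genes together when proteasome activity falls, by binding antioxidant response elements with small MAF partners.

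More proteasome genes were higher than lower in shSep15 cells, by small amounts. Of the 46 genes, 19 were higher (41.3%) and 1, the ATPase gene Psmc2, was lower (2.17%) at a limma adjusted p under 0.05. Among all 18193 genes, 12.2% were higher and 12.8% lower by the same test, 25.0% in all. Most proteasome genes are bright, and bright genes pass the test more often: of the 2975 bright genes, those with a mean of at least log2 10, 26.5% were higher and 24.9% lower, against 17 and 1 of the 39 proteasome genes in that range (43.6% and 2.56%). The median log2 difference, shSep15 minus control, was 0.09 over the 46 genes and 0.01 over all genes. Differences ran from −0.42 (Psmc2) to 1.07 (Psma5), and 6 genes were at least 1.5-fold higher: Psma5, Psmc3ip, Psme1, Psmd1, Psmd4 and Psmd13. In all, 26 genes were not past the threshold. As the RNA is that of whole samples, fewer cells expressing a gene and less of its RNA per cell cannot be told apart.

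All 3 shSep15 arrays lay above all 3 control arrays in 22 proteasome genes and below them in 7, while 17 overlapped. Over all genes, 19.3% separated upward and 18.7% downward. The median deviation of the 46 genes from their control means was 0.18, 0.13 and 0.11 on shSep15 1, 2 and 3, and 0.04, 0.04 and −0.06 on control 1, 2 and 3. Without shSep15 3, 17 genes were higher and 1 lower, and without control 3, 17 were higher and 3 lower. The number of lower genes varied with the processing. After quantile normalization of the arrays, 19 were higher and 5 lower, the 5 being Psmc2, Psma6, Psmb7, Psmc6 and Psme3ip1. Testing only probe sets above background also gave 5 lower, while setting the arrays to the same median left 1. In the main run Psme3ip1, Psmb7, Psma6 and Psmc6 lay just past the threshold, at limma adjusted p from 0.0504 to 0.0584.

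**Figure D1:**
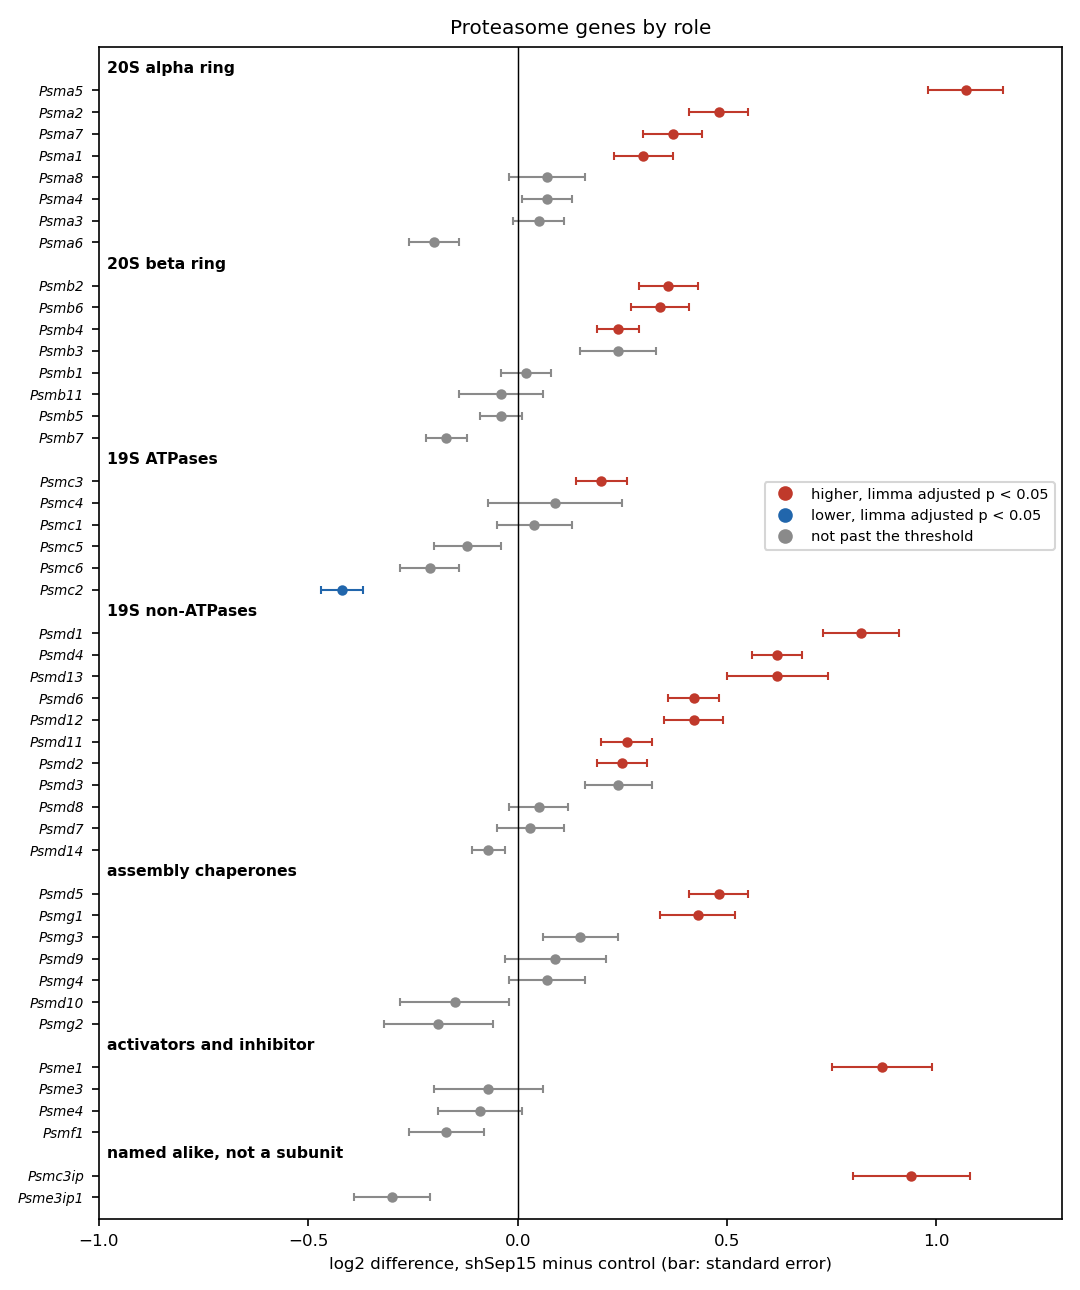
Log2 difference, shSep15 minus control (horizontal axis), of each of the 46 genes, grouped by role and ordered by size; bars are standard errors of limma. The 19 genes past the threshold upward are red and Psmc2, the gene past it downward, is blue; the largest difference is that of Psma5, 1.07.

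Promoter windows are shown for the gene that rose most (Psma5), the gene that fell (Psmc2), the protease subunit Psmb6, which rose, the protease subunit Psmb5, which was not past the threshold, and the lid subunit Psmd12, which rose. They come from RefSeq on GRCm38.p6 and run from 250 bases before to 50 bases after the annotated start, 5′ to 3′ in the direction of transcription, for Psmc2 at the first of its annotated starts. Capitals mark the core of the antioxidant response element, TGACNNNGC, or the CCAAT box, on either strand.
Psma5 promoter, chr3:108256676-108256975, plus strand: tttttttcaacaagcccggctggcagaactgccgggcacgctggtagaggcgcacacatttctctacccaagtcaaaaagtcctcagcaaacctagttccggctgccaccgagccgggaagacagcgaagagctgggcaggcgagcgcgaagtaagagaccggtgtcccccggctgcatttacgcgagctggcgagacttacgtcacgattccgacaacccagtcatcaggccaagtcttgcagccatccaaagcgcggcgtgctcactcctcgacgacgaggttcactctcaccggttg
Psmb5 promoter, chr14:54617946-54618245, minus strand: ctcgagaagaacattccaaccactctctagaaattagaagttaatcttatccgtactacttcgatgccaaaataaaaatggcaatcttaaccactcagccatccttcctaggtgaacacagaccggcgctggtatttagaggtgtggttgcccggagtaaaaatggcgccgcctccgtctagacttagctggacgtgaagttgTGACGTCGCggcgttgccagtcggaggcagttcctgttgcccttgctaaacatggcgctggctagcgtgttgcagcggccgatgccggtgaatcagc
Psmb6 promoter, chr11:70525107-70525406, plus strand: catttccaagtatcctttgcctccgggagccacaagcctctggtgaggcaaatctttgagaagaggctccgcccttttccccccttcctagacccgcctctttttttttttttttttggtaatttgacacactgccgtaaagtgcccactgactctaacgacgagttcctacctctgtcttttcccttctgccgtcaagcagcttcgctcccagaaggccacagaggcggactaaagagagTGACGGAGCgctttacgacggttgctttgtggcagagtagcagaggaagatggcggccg
Psmd12 promoter, chr11:107479278-107479577, plus strand: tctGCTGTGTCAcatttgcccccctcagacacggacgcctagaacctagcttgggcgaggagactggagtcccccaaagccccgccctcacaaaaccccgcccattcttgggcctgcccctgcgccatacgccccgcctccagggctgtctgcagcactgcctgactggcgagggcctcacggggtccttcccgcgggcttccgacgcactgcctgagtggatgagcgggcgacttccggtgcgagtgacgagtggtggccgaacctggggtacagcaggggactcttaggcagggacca
Psmc2 promoter, chr5:21785025-21785324, plus strand: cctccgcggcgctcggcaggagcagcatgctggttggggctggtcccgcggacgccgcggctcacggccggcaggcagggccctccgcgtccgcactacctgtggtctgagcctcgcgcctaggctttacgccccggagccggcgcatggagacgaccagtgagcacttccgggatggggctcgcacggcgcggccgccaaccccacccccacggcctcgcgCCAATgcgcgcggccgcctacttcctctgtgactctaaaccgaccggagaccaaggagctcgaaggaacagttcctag

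A promoter window was held for 38 of the 46 genes. TGACNNNGC stood in the windows of 6 of the 38 (15.8%), against 14.0% of the 27025 genes in the RefSeq table. The 6 were Psmb5, Psmb6, Psmc6, Psmd9, Psmd12 and Psme4, of which Psmb6 and Psmd12 were among the genes that rose. In Psmb6 the match begins 9 bases before the start, in Psmb5 47 bases and in Psmd12, on the opposite strand, 247 bases. CCAAT stood in 15 of the 38 windows (39.5%), against 41.1% of all genes, and no proteasome gene held both motifs, so they did not overlap. Of the 17 genes that rose and had a window, 2 held TGACNNNGC and 5 held CCAAT, and of the 20 not past the threshold 4 and 9 did. A match of letters is not evidence of binding.

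Of the alpha ring, 4 of 8 genes rose (against 12.2% of all genes and 26.5% of the bright genes) and none was past the threshold downward (1 lower at an unadjusted p under 0.05, limma), and the median difference was 0.18. Psma5 encodes an alpha subunit of the core. It read 11.31, 11.46 and 11.14 on the control arrays and 12.50, 12.25 and 12.38 on the shSep15 arrays. The shSep15 arrays all lay above the control arrays, by more than the spread within either group. The log2 difference was 1.07 (SE 0.09, limma adjusted p = 6.11e-05), a 2.10-fold rise, and its second probe set above background gave 1.17. Psma5 lies on chromosome 3, where the median of all 543 genes above background was 0.26 and 42.5% were higher. Psmb4 and Psmd4 lie there too, and the shift of that chromosome and the change of these 3 genes cannot be told apart here.

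Psma2 read 11.60, 11.66 and 11.45 in control and 12.07, 12.05 and 12.04 in shSep15 cells. The shSep15 values were nearly equal and lay above every control value (log2 difference 0.48, SE 0.07, limma adjusted p = 0.000795). Psma7 rose by 0.37 (SE 0.07, limma adjusted p = 0.00546) and Psma1 by 0.30 (SE 0.07, limma adjusted p = 0.0174), each with groups that did not overlap. The call of Psma1 ended without shSep15 1 or shSep15 3 (highest adjusted p = 0.0823). Psma3 (0.05) and Psma4 (0.07) overlapped between groups. Psma6 was lower on all 3 shSep15 arrays, with a difference of −0.20 on its brightest probe set (limma adjusted p = 0.0557) and −0.26 on the next (limma adjusted p = 0.0162), so its call depended on the probe set. Psma8, the alpha subunit of the testis, was near background in both groups (4.08 and 4.15).

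Of the beta ring, 3 of 8 genes rose (37.5%, against 12.2% of all and 26.5% of bright genes) and none was past the threshold downward (1 lower at an unadjusted p under 0.05, limma), with a median of 0.13. The protease sites lie in Psmb5 (cleavage after hydrophobic residues), Psmb6 (after acidic residues) and Psmb7 (after basic residues). Of these, Psmb6 was past the threshold, and the differences among the 3 were not tested. Psmb6 read 10.90, 10.91 and 10.81 in control and 11.21, 11.17 and 11.26 in shSep15 cells, a rise of 0.34 (SE 0.07, limma adjusted p = 0.00564). Psmb5 read 12.09, 12.14 and 12.05 in control and 12.08, 12.00 and 12.10 in shSep15 cells, and its groups overlapped (−0.04, SE 0.05, limma adjusted p = 0.730). Psmb7 read 12.82, 12.79 and 12.73 in control and 12.69, 12.52 and 12.62 in shSep15 cells. All its shSep15 arrays lay below its control arrays, and the difference of −0.17 stood close to the threshold (SE 0.05, limma adjusted p = 0.0541).

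The other beta genes that rose were Psmb2 (0.36, SE 0.07, limma adjusted p = 0.00496) and Psmb4 (0.24, SE 0.05, limma adjusted p = 0.00652), which carry no protease site in mouse. Psmb4 lost its call when limma was run without the intensity trend (adjusted p = 0.0784). Psmb2 lies on chromosome 4, where 32.8% of 687 genes above background were higher. Psmb3 differed by 0.24 on its brightest probe set (limma adjusted p = 0.108) and by 0.43 on the other (limma adjusted p = 0.00728). Psmb1 (0.02) overlapped between groups, and the thymus subunit Psmb11 was near background (4.94 and 4.90).

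The immunoproteasome counterparts, which replace the protease subunits of the core after interferon, were read beside them. Psmb8, the counterpart of Psmb5, was near background (5.24 and 5.14). Psmb9, the counterpart of Psmb6, read 6.87 ± 0.22 (SD, n = 3) in control and 6.83 ± 0.29 (SD, n = 3) in shSep15 cells, with overlapping groups and 7.16 on shSep15 3. Psmb10, the counterpart of Psmb7, read 8.18, 8.27 and 8.45 in control and 8.67, 8.62 and 9.02 in shSep15 cells. The highest value of both genes stood on shSep15 3, the array with raised interferon-stimulated genes. Psmb10 was higher by 0.46 (SE 0.14, limma adjusted p = 0.0433), a call that ended without shSep15 3 (0.34, limma adjusted p = 0.154), without shSep15 1 or 2 (limma adjusted p = 0.0722 and 0.0572) and without control 1 or 2 (limma adjusted p = 0.133 and 0.125).

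**Figure D2:**
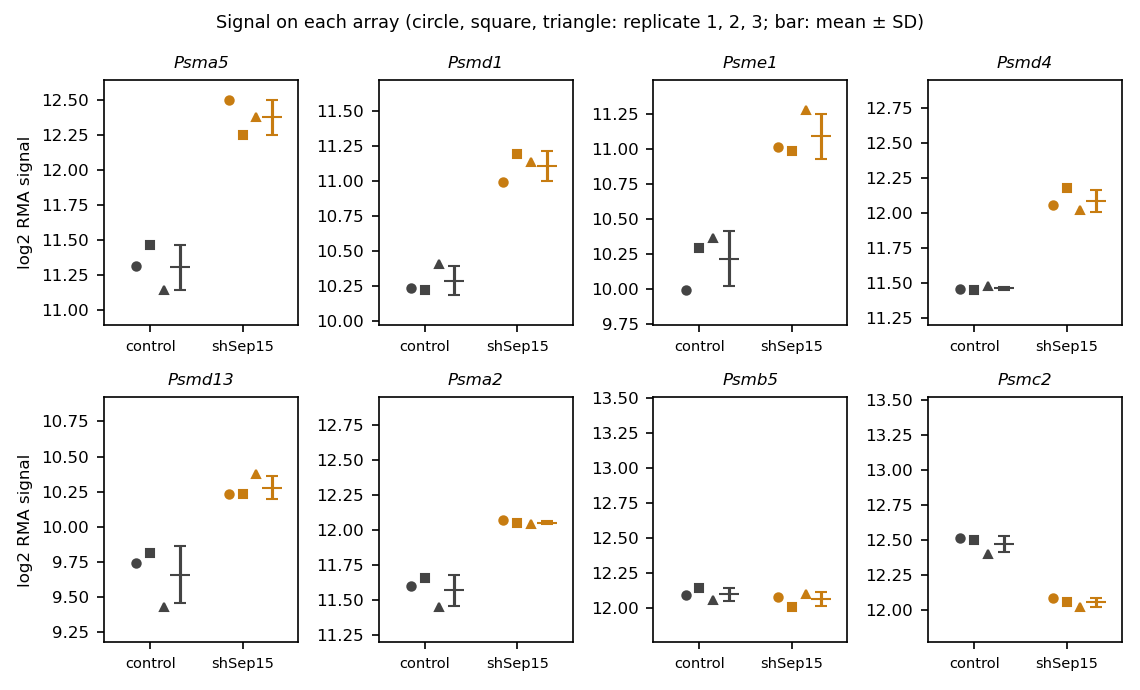
Log2 RMA signal (vertical axis, the same span in every panel) of 8 proteasome genes on each control (grey) and shSep15 (orange) array; symbols give the replicate and bars the mean ± SD of 3 arrays. Psma5, Psmd1, Psme1, Psmd4, Psmd13 and Psma2 lie higher on all shSep15 arrays, Psmb5 overlaps and Psmc2 lies lower.

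The 6 ATPases of the regulatory particle were split, with a median of −0.04: 1 rose, 1 fell (16.7% each, below the shares of bright genes, 26.5% and 24.9%) and 4 were not past the threshold. Psmc2 read 12.51, 12.50 and 12.40 in control and 12.09, 12.05 and 12.02 in shSep15 cells. The groups did not overlap, with the knockdown samples lower. Psmc2 fell by 0.42 (SE 0.05, limma adjusted p = 0.000455), and its second probe set above background fell by 0.35 (limma adjusted p = 0.00404). With the mean of all its probe sets, which includes a dim probe set at 4.64 and 4.72, the call ended (limma adjusted p = 0.0946).

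Psmc3 was higher by 0.20 (SE 0.06), a call at the edge of the threshold (limma adjusted p = 0.0489) that was lost when control 1, control 3 or any of the shSep15 arrays was left out (adjusted p up to 0.139), and also without the intensity trend (adjusted p = 0.135). Psmc6 had probe sets that pointed in different directions. The brightest read 12.02, 11.81 and 11.84 in control and 11.72, 11.65 and 11.66 in shSep15 cells (−0.21, limma adjusted p = 0.0584). The next read 9.44, 9.20 and 9.24 in control and 10.26, 9.69 and 9.82 in shSep15 cells (0.63, SE 0.15, limma adjusted p = 0.0150). No direction can be given for Psmc6 from these arrays. Psmc1 (0.04), Psmc4 (0.09) and Psmc5 (−0.12) overlapped between groups.

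The non-ATPase subunits of the regulatory particle were higher in 7 of 11 cases (63.6%, against 12.2% of all and 26.5% of bright genes), none was lower (also none at an unadjusted p under 0.05, limma), and the median was 0.26. Psmd1 is the large scaffold of the base. It read 10.23, 10.22 and 10.41 in control and 10.99, 11.19 and 11.14 in shSep15 cells, a rise of 0.82 (SE 0.09, limma adjusted p = 0.000202). Psmd4, a receptor for ubiquitin chains, read 11.46, 11.45 and 11.48 in control and 12.06, 12.18 and 12.02 in shSep15 cells. It rose by 0.62 (SE 0.06, limma adjusted p = 0.000109), with a control SD of 0.01. Psmd2, the other large base subunit, which docks ubiquitin shuttles, was higher by 0.25 (limma adjusted p = 0.0249). Its call ended without control 3 or shSep15 1 or 2 (adjusted p up to 0.108).

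Of the lid, the scaffold subunits Psmd13, Psmd6, Psmd12 and Psmd11 rose. Psmd13 read 9.74, 9.81 and 9.42 in control and 10.23, 10.23 and 10.38 in shSep15 cells (0.62, SE 0.12, limma adjusted p = 0.00437). The groups did not overlap, although control 3 lay apart from the other control arrays. Psmd6 rose by 0.42 (SE 0.06, limma adjusted p = 0.000911) and Psmd12 also by 0.42 (SE 0.07, limma adjusted p = 0.00313). Psmd11 rose by 0.26 (SE 0.06, limma adjusted p = 0.0138), and of its 4 other probe sets above background 2 were called higher. Its call ended without shSep15 1 (adjusted p = 0.0558). Psmd3 was higher on every shSep15 array without passing the threshold (0.24, limma adjusted p = 0.0754). The ubiquitin-removing subunit Psmd14 (−0.07), its partner Psmd7 (0.03) and Psmd8 (0.05) did not pass the threshold. Psmd14 was nevertheless lower on every shSep15 array, while Psmd7 and Psmd8 overlapped between groups.

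**Figure D3:**
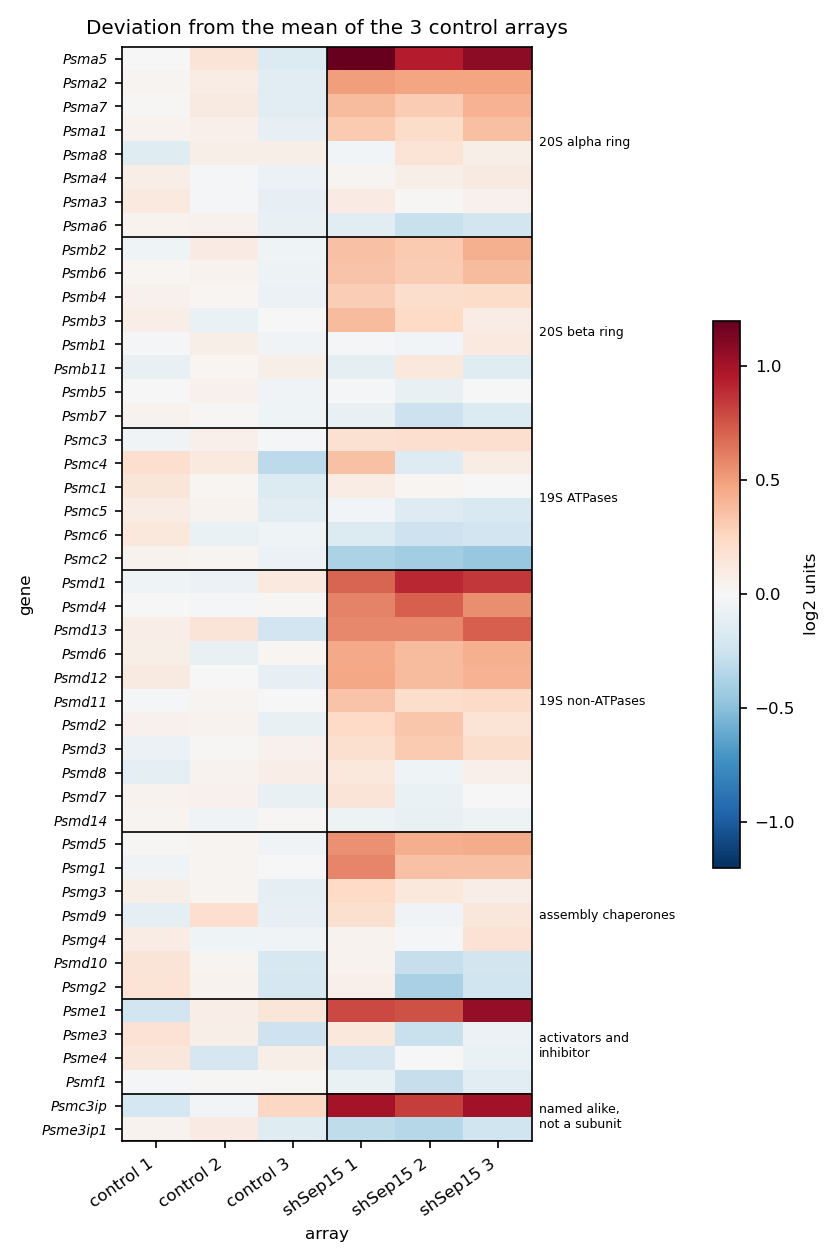
Deviation of each array (columns) from the mean of the 3 control arrays, in log2 units, for the 46 genes (rows) grouped by role; red is higher and blue lower. The non-ATPase subunits from Psmd1 to Psmd3 are red on all 3 shSep15 arrays, and Psmc2 is blue on all 3.

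Of the 7 assembly chaperones, 2 rose (28.6%, near the 26.5% of bright genes) and none was lower (also none at an unadjusted p under 0.05, limma), with a median of 0.09. Psmd5, which holds ATPases during assembly of the base, read 10.56, 10.58 and 10.51 in control and 11.10, 10.98 and 11.00 in shSep15 cells (0.48, SE 0.07, limma adjusted p = 0.00121). Psmg1, which with Psmg2 guides the assembly of the alpha ring, read 10.31, 10.39 and 10.35 in control and 10.94, 10.70 and 10.70 in shSep15 cells (0.43, SE 0.09, limma adjusted p = 0.00704). Both genes had groups that did not overlap. The partner Psmg2 differed by −0.19 (SE 0.13, limma adjusted p = 0.411) and lies on chromosome 18, where the median of all 266 genes above background was −0.31. The base chaperones Psmd9 (0.09) and Psmd10 (−0.15) and the alpha ring chaperones Psmg3 (0.15) and Psmg4 (0.07) did not pass the threshold.

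Among the activators and the inhibitor, 1 of 4 genes rose (25.0%, near the 26.5% of bright genes), with a median of −0.08. Psme1, a subunit of the activator that interferon raises, read 9.99, 10.30 and 10.37 in control and 11.02, 10.99 and 11.28 in shSep15 cells. It was higher on all 3 shSep15 arrays and highest on shSep15 3, the array with raised interferon-stimulated genes. The rise was 0.87 (SE 0.12, limma adjusted p = 0.000783), and 0.78 without shSep15 3 (limma adjusted p = 0.00575). The probe set shared by Psme2, the partner of Psme1 in the same ring, and Psme2b read 11.01, 11.00 and 10.97 in control and 10.79, 10.80 and 11.12 in shSep15 cells. Its groups overlapped (−0.09, SE 0.10, limma adjusted p = 0.635), with shSep15 3 above and the other shSep15 arrays below the control arrays. The nuclear activator Psme3 (−0.07, SE 0.13), the activator Psme4 (−0.09, SE 0.10) and the inhibitor Psmf1 (−0.17, SE 0.09) did not pass the threshold, at limma adjusted p = 0.800, 0.635 and 0.254. Psmf1 was nevertheless lower on all 3 shSep15 arrays.

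Both genes that are named after the proteasome protein they bind, and are not subunits, are given separately. Psmc3ip, a factor of meiotic recombination, read 7.08, 7.26 and 7.54 in control and 8.29, 8.12 and 8.29 in shSep15 cells (0.94, SE 0.14, limma adjusted p = 0.00133). Psme3ip1, a nuclear partner of Psme3, differed by −0.30 (SE 0.09, limma adjusted p = 0.0504) and was lower on every shSep15 array. Without these genes 18 of 44 were higher and 1 lower.

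Probe sets of the same gene mostly moved together. The 46 genes had 99 probe sets, 76 of them above background, and 21 genes had several above background. In 15 of the 21 all of these probe sets pointed the same way, and in 14 they had the same call. No gene had probe sets called in opposite directions. Of the 9 called genes with another probe set above background, 5 had all of these called the same way: Psma5, Psma7, Psmc2, Psmd6 and Psmc3ip. In the other 4, Psmb4, Psmd4, Psmd11 and Psmd13, at least 1 further probe set was not past the threshold. With the mean of all probe sets of a gene, dim ones included, Psma1, Psmd2 and Psmd11 lost their calls (limma adjusted p = 0.393, 0.179 and 0.174). Without the intensity trend, Psmd2 and Psmd11 lost theirs (limma adjusted p = 0.0963 and 0.057).

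**Figure D4:**
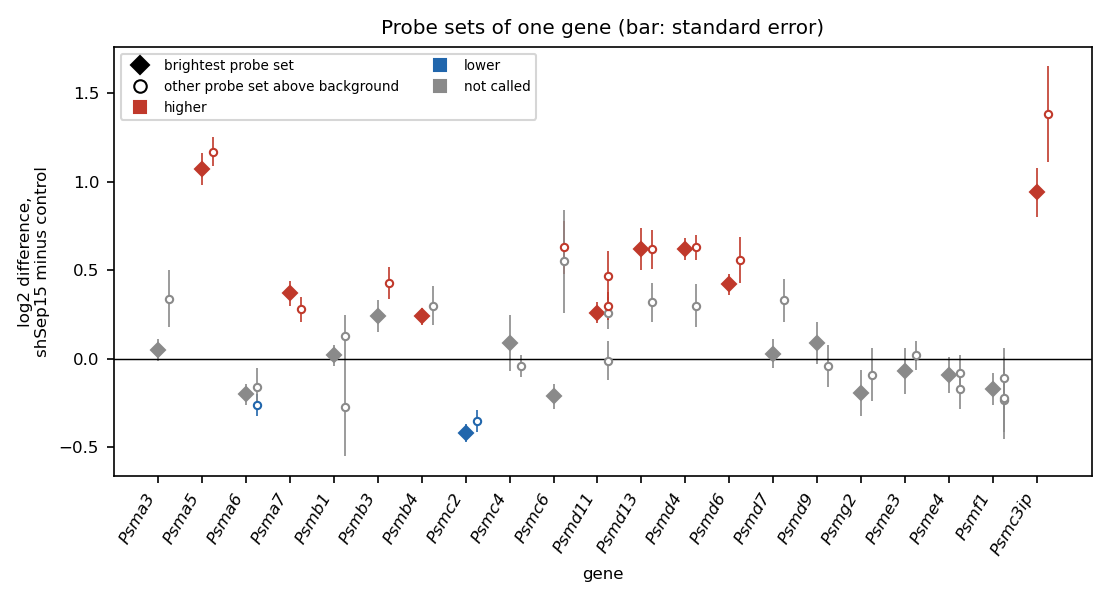
Log2 difference, shSep15 minus control (vertical axis), of every probe set above background in the 21 genes that have several; diamonds are the brightest probe set, circles the others, bars standard errors of limma and colours the call. The probe sets of Psma5, Psmd4, Psmd13 and Psmc2 point the same way, those of Psmc6 do not.

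The rises were spread over chromosomes. All 3 proteasome genes of chromosome 3 rose, as did the 1 gene on chromosome 4. The other 15 rises lay outside chromosomes 3, 4, 17, 18 and X, with 4 of 9 genes on chromosome 11 and 3 of 6 on chromosome 2. Of all genes above background, 14.9% were higher on chromosome 11, 13.4% on 2, 42.5% on 3, 32.8% on 4 and 31.7% on 17. On chromosomes 18 and X, 46.2% and 32.8% were lower. Outside chromosomes 3, 4, 17, 18 and X, 15 of 38 proteasome genes were higher and 1 lower, with a median of 0.09. Over all chromosomes, 12.2% of all genes and 26.5% of bright genes were higher. The chromosome 11 count includes Psmc3ip.

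Of 30 genes measured that act with the proteasome, 9 were higher (30.0%) and 7 lower (23.3%), with a median of 0.01. These shares lie near those of bright genes, 26.5% and 24.9%, and over all genes they were 12.2% and 12.8%. The factors listed for the control of proteasome genes by NFE2L1 were lower: 5 of 6 fell (83.3%, against 12.8% of all and 24.9% of bright genes) and none rose (none higher and 6 lower at an unadjusted p under 0.05, limma), and the median was −0.61. Nfe2l1 itself read 9.99, 10.04 and 10.03 in control and 9.19, 9.15 and 9.33 in shSep15 cells. It fell by 0.80 (SE 0.09, limma adjusted p = 0.000292), and all shSep15 arrays lay below all control arrays. The small MAF partner Maff fell by 1.37 (SE 0.10, limma adjusted p = 2.33e-05), from 10.52, 10.60 and 10.34 to 9.18, 9.11 and 9.05, and Mafg by 0.61 (SE 0.09, limma adjusted p = 0.0015). Mafk (−0.60) and the glycanase Ngly1 (−0.50), which acts on the NFE2L1 protein, fell as well. Nfe2l2 differed by −0.17 on its brightest probe set (limma adjusted p = 0.109). Its other probe set above background was called lower, so its call depended on the probe set. The 5 calls held under each alternative run for them.

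Of 9 factors that bind or mature the proteasome, 3 rose (33.3%, near the 26.5% of bright genes) and none was past the threshold downward (2 lower at an unadjusted p under 0.05, limma: Akirin2 and Zfand5, both −0.24). Usp14 (0.16) and Txnl1 (0.05) were not past the threshold on their brightest probe sets. Of their other probe sets above background, 2 of 3 for Usp14 and 1 of 2 for Txnl1 were called higher, so their calls depended on the probe set. Pomp, the chaperone that matures the core, read 11.91, 11.86 and 11.82 in control and 12.44, 12.48 and 12.33 in shSep15 cells (0.56, SE 0.06, limma adjusted p = 0.000161). The proteasome-bound deubiquitinase Uchl5 rose by 0.71 (SE 0.15, limma adjusted p = 0.00815) and the adaptor Ecpas by 0.70 (SE 0.11, limma adjusted p = 0.00154). Of 3 other Ecpas probe sets above background, 1 was called higher. Of 4 shuttle factors, which bring ubiquitin-tagged proteins to the proteasome, 3 rose (75.0%, against 12.2% of all and 26.5% of bright genes): Ubqln2 by 1.08 (SE 0.10, limma adjusted p = 0.000116), Ubqln4 by 0.52 (limma adjusted p = 0.00583) and Rad23b by 0.39 (limma adjusted p = 0.00358). The fourth, Ubqln1, lay below control on all 3 shSep15 arrays without passing the threshold (−0.21, limma adjusted p = 0.0701). Ubqln2 and Ubqln4 each had 1 other probe set above background, which was not past the threshold. With the mean of all probe sets of a gene, dim ones included, Ubqln2 rose by 0.48 (limma adjusted p = 0.00376) and Ubqln4 by 0.35 (limma adjusted p = 0.0356). The segregase Vcp rose by 0.38 (SE 0.05, limma adjusted p = 0.00105) and its cofactor Ubxn1, at 8.94 ± 0.26 (SD, n = 3) in control and 10.14 ± 0.14 (SD, n = 3) in shSep15 cells, rose as well (limma adjusted p = 0.000347). Ubqln4 lies on chromosome 3 and Ecpas, Rad23b and Vcp on chromosome 4, the chromosomes described above. The Vcp cofactor Nploc4 was lower by a log2 difference of −0.44 (SE 0.10, limma adjusted p = 0.0145), a call that ended without shSep15 2 or shSep15 3 (highest adjusted p = 0.0679). The cofactor Faf2 was also lower (−0.34, limma adjusted p = 0.0457), and its call ended when any 1 of 5 arrays was left out (highest adjusted p = 0.147).

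**Figure D5:**
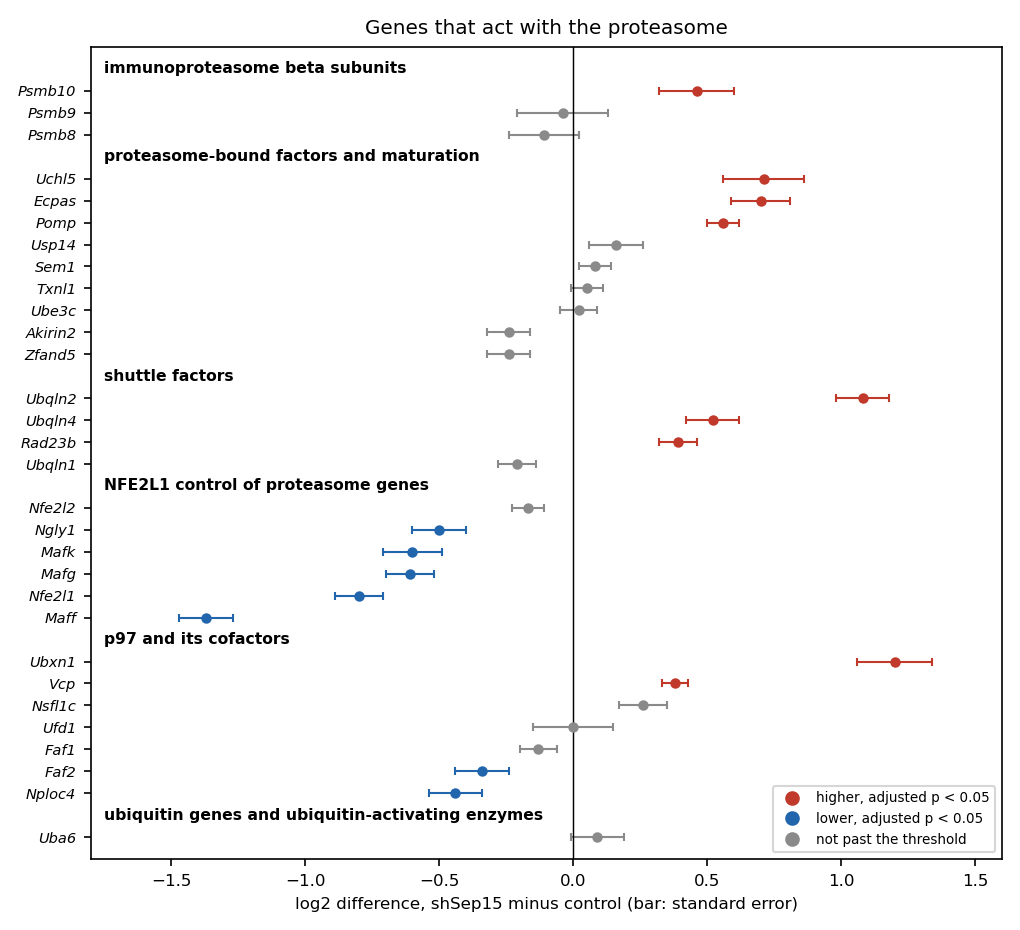
Log2 difference, shSep15 minus control (horizontal axis), of 30 genes that act with the proteasome, grouped by role; bars are standard errors of limma and colours the call. The genes of the NFE2L1 group all lie below 0, whereas 3 of 4 shuttle factors and Pomp, Uchl5 and Ecpas lie above it.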

How the data were processed

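RNA of 6 samples was measured on Affymetrix Mouse430_2 arrays, per the labels. The deposited values are log2 signals per probe set made with RMA, per the submitters' processing notes, with the version not given in the sources used here. RMA has no detection call, pulls differences of dim probe sets toward 0, and hides a change in total RNA per cell.

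The 45101 probe sets include 64 array controls, which were left out. For the other 45037, a model of group alone was fitted in R 4.3.3 with limma 3.58.1 (lmFit; eBayes, trend = TRUE), and the two-sided p-values were adjusted by Benjamini-Hochberg over all 45037, at a threshold of 0.05. The procedure was tested on simulated data. Genes were named from the 34945 probe sets with 1 symbol in the platform annotation. Chromosomes come from the RefSeq table of GRCm38.p6, since the arrays name no build. Groups came from the sample titles. The series design speaks of different mRNA samples and not of separate cultures, so p-values measure only the spread between these samples, which may be technical. Array number limits the precision.

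Members, role groups, other lists, tests and alternatives were chosen with earlier results of these data known, and counts over lists carry no test. Of the 39 genes of the list that acts with the proteasome, 30 had a probe set with 1 symbol. By rule, full values are given in each role group for the called gene with the greatest difference in each direction and the 3 next, for the activators, the inhibitor and the protease subunits with their counterparts, and for up to 3 called genes per further list. The values of the other members, of Psmc6 in full, of Faf2, Mafk and Ngly1, and the choice of promoters were added after their values were seen. The sample titles do not say whether replicate numbers pair the arrays, and the model of group alone does not pair them.

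Alternatives were no trend, a replicate block, arrays at the same median, quantile normalization, other choices of probe set and a filter on dim probe sets. Others left out each array, 5 chromosomes, or the genes named after a proteasome protein.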

Additional observations from a re-analysis of the deposited data

How the results depend on the processing

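The 19 higher genes numbered 15 to 20 under every alternative, each within 1.5 times of that count, 15 of them without the intensity trend and 15 to 19 when 1 array was left out. Of the 20 called genes, 14 kept their call in all alternatives run for single genes and 6 lost it in at least 1: Psma1, Psmb4, Psmc2, Psmc3, Psmd2 and Psmd11. Another 6 gained a call in at least 1: Psma6, Psmb3, Psmb7, Psmc6, Psmd3 and Psme3ip1. No called gene changed direction in these alternatives. Leaving out both Psmc3ip and Psme3ip1 (18 higher, 1 lower) was chosen after seeing the data. In place of 1, the number of lower genes was 2 with the mean of a gene's probe sets and with the brightest probe set not ending in _s_at or _x_at. With the mean, Psmc2 was not among the lower genes (limma adjusted p = 0.0946). Those called lower were then Psmb7 and Psme3ip1 (limma adjusted p = 0.0485 and 0.0264). The number of lower genes was 5 with quantile normalization and 3 with the replicate block. With only probe sets above background tested, 47.4% of the 45037, it was 5, with 44 of the 46 genes left. When 1 array was left out it was 1 to 3, with 3 without control 3 and 2 without shSep15 1. The cause of these changes was not tested. The median of 0.09 was 0.15 with the mean of a gene's probe sets and 0.08 to 0.16 when 1 array was left out. The correlation of deviations between arrays with the same number was 0.40, −0.20 and −0.06 for numbers 1, 2 and 3. With 3 arrays per group these values cannot decide whether the numbers pair the arrays. The replicate block left 18 genes higher. Without chromosomes 3, 4, 17, 18 and X, 15 of 38 genes were higher. Of the beta ring, 1 of 5 genes was then higher. Log2 differences of dim probe sets are compressed, which limits Psma8, Psmb8 and Psmb11.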
